A study of Rattus norvegicus with 3 samples.

Results

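Small nuclear RNAs are short, abundant RNAs of the nucleus, and most of them are the RNA parts of the spliceosome. The genes described here are all genes whose biotype in the deposited table was snRNA, 1303 of 29684 genes, grouped by the RNA type that the table's description column names. By that column there were 155 U1, 207 U2, 116 U4, 10 U5, 698 U6, 82 U7, 7 U11, 4 U12, 1 U4atac and 23 U6atac genes. U7 acts in histone mRNA processing and is no part of the spliceosome, but it carries the same biotype. Of the 1303 genes, 1174 had a placeholder symbol that starts with LOC, and all 129 with an assigned symbol that names a type matched the description.

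Vesicles are membrane-bound particles that cells shed, and here they were gathered from the culture supernatant of rat adipose-derived mesenchymal stem cells, the stromal cells of wild-type inguinal fat. The 3 libraries, titled replicates 1 to 3, form 1 group of vesicle samples, prepared for a study of premature ovarian insufficiency induced by 4-vinylcyclohexene diepoxide. Their titles do not say whether they are separate vesicle batches. Whether they differ in animal or culture is not labelled, so the spread may be technical. The estimated counts summed to 5219920, 6786182 and 6618461 in replicates 1, 2 and 3. Of the markers of the labelled material, the vesicle tetraspanin Cd63 had 19.4 ± 3.09 FPKM (SD, n = 3) and the integrin subunit Itgb1 17.4 ± 4.02. The stromal markers Thy1, Nt5e, Eng and Cd44 lay between 4.39 and 7.49 FPKM, and the tetraspanins Cd9 and Cd81 at 6.07 and 2.98. Ptprc, a leukocyte marker, had 2.78 FPKM, near the level of the receptor genes used as background, as was Cd81. Of the other markers of other cell types looked up, the endothelial marker Pecam1 had 8.92 ± 0.732 FPKM and the monocyte marker Cd14 5.48 ± 1.5. Pecam1 thus lay above Thy1, Nt5e, Eng and Cd44 but below Itgb1, which was also looked up as a stromal surface marker. Their part in the results below was not tested.

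In the nucleus, U1 pairs with the start of an intron and U2 with its branch point, after which U4, U5 and U6 join as a preformed particle. U6, together with U2, forms the catalytic centre once U4 has been released, and U5 holds the exons. U11, U12, U4atac and U6atac, with U5, do the same for a rare class of introns, the minor class. Each of these RNAs is bound by a ring of proteins: the Sm proteins on most types, the LSm2-8 proteins on U6 and U6atac. Mammalian genomes hold a few transcribed gene copies of each type and many more copies that are retrotransposed or decayed, and the annotation counts them together.

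A level per base was set against a background, since 1 group gives no contrast. The background was the median of 1399 olfactory and vomeronasal receptor genes, a family that stromal cells are not known for, at 2.94, 2.33 and 2.62 FPKM in replicates 1 to 3. FPKM is the authors' level per kilobase of gene, scaled by a total for each library. A gene was called when it lay above 4 times that level at an adjusted p under 0.05, by edgeR's quasi-likelihood test over all genes with Benjamini-Hochberg adjustment. By this rule 36 of the 1303 small nuclear RNA genes were called, 2.76%, against 4.05% of all genes of the table. By edgeR the class as a whole was thus not called more often than all genes. At an unadjusted p under 0.05 the count was 53. Of the 1399 receptor genes themselves 6 were called (0.429%), and the highest of the 1399 had a mean of 39.7 FPKM. Among other classes, 924 of 22745 nuclear protein-coding genes (4.06%) and 36 of 1599 small nucleolar RNA genes (2.25%) were called. The order depended on the test. By DESeq2 43 of the 1303 were called, against 1427 of all 29684 genes. By limma 32 were called against 549, a larger share in the class than over all genes. The median summed count was 8 in the class and 245 over all genes, which limits any comparison of call rates.

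**Figure D1:**
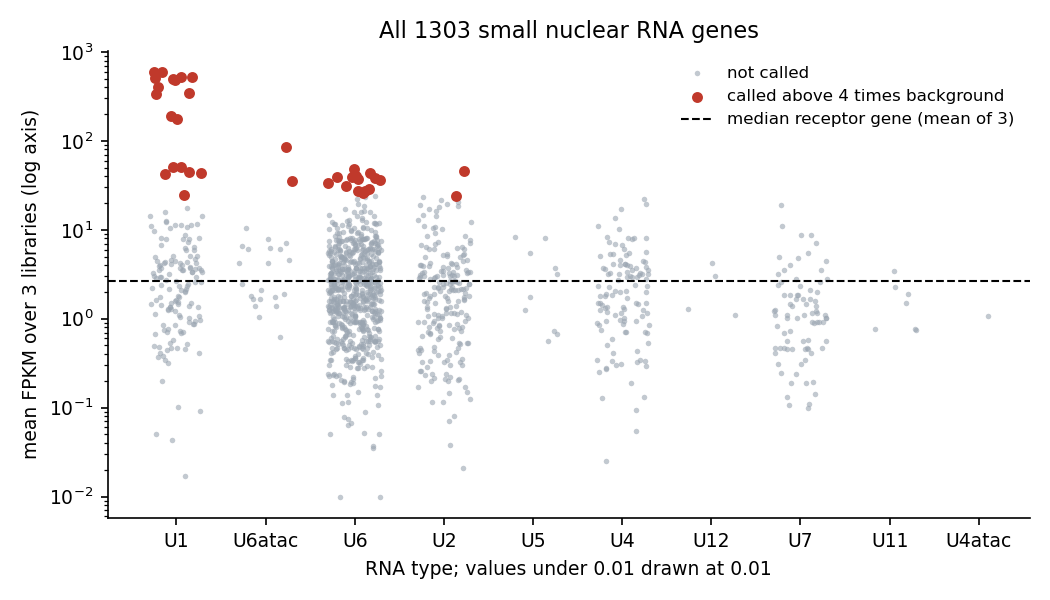
Mean FPKM over 3 libraries of each of the 1303 small nuclear RNA genes (log axis), by RNA type; red points are the 36 called genes, and the dashed line is the median receptor gene. A group of 12 U1 genes at 175 FPKM or more stands above all other genes of the class, and most genes lie at or below the background.

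Most annotated copies had low counts. The summed count over the libraries was under 10 in 755 genes, from 10 to under 100 in 515, from 100 to under 1000 in 23 and at least 1000 in 10, and all of these 10 were U1 genes. The median gene had a summed count of 8 and 1.59 ± 0.199 FPKM, below the receptor background of 2.63 ± 0.306. Counts were above 0 in every library for 615 genes, and FPKM was at least 1 in every library for 427. The table holds no gene with 0 counts in all libraries, so copies with no read were not counted.

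The class took 0.260%, 0.182% and 0.224% of the counts in replicates 1, 2 and 3, which is 0.222 ± 0.0388%. Per length, its share of the summed FPKM was 2.54 ± 0.458%, with the lowest value, 2.10%, again in replicate 2. U1 genes supplied 66.8%, 61.8% and 64.0% of the class's counts. The 12 highest U1 genes alone supplied 56.0 ± 2.55% of the class's counts and 87.1 ± 1.24% of those of U1.

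U1, the RNA that defines the start of introns, was the highest type in every library. Its summed level over 155 genes was 6908, 4840 and 5992 FPKM, which is 38.2 ± 6.69 FPKM per annotated copy and 14.4 ± 0.913 times the background. Of the 155 genes 18 were called, and all 18 had a length within 5 bases of the commonest length of 164 bases, which 93 U1 genes had. The other 143 U1 genes, without the 12 highest, had a median of 2.18 ± 0.816 FPKM, close to the background, and 6 of them were called. The gap between these groups was wide: the lowest of the 12 had a summed count of 787 and the next U1 gene 225. The 12 were set apart by that gap after the values had been seen, so their level is a description.

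The 12 highest U1 genes sat at 3 places in the genome (coordinates are those of mRatBN7.2). On chromosome 2, from 183901212 to 184041441, 7 U1 genes lay within 140 kb, and 6 of them were called. On chromosome 6, from 72194671 to 72227207, 6 U1 genes lay within 32.5 kb, and 5 of them were called. The remaining gene, LOC120095385, lay alone on chromosome 10 from 72249871 to 72250034, inside Tex14 on the same strand. Tex14, a gene for a protein of germ cell bridges, had 4.6 FPKM, far under the 595 FPKM of the copy within it.

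LOC120101310, the first U1 gene of the chromosome 2 array, had 788, 422 and 570 FPKM in replicates 1, 2 and 3. It lay 222-fold above the background (log2 7.80, SE 0.17, adjusted p 3.3e-10, edgeR), and all 3 libraries were above 400 FPKM. LOC120095385 on chromosome 10 had 799, 419 and 566 FPKM, which differed from LOC120101310 by at most 1.39% in any library. It ranked 46th among all genes of the table by mean FPKM, and the lowest of the 12, LOC120101333, ranked 135th.

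The other copies of the 2 arrays formed steps. LOC120101299 (594, 443 and 542 FPKM), LOC120101322 (586, 427 and 542) and LOC120101277 (574, 422 and 540), all on chromosome 2, lay close together in each library. On chromosome 6, LOC120093324 had 557, 423 and 501 FPKM and LOC120093335 had 550, 421 and 476. In replicate 2 the 7 highest copies thus spanned only 419 to 443 FPKM, while in replicate 1 they spanned 550 to 799. Below them on chromosome 6 came LOC120093302 with a mean of 399 FPKM, LOC120093313 with 345 and LOC120093291 with 335. The lowest of the called U1 array copies were both on chromosome 2: LOC120101288 with a mean of 190 FPKM and LOC120101333 with 175. Near-identical copies can share reads, and how the authors assigned a read with several matches is not given in the sources used here, so the levels of single copies are uncertain.

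**Figure D2:**
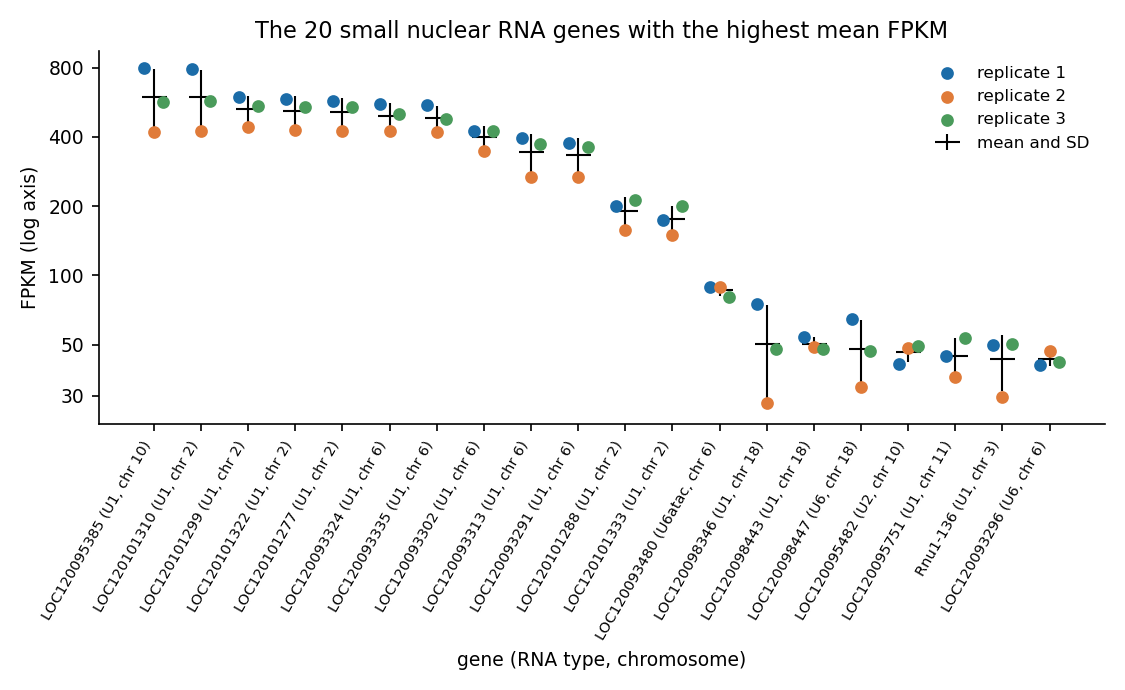
FPKM in each of 3 libraries (log axis) of the 20 small nuclear RNA genes with the highest mean FPKM, with the mean and SD in black. The 12 U1 genes of chromosomes 2, 6 and 10 lie at 149.9 FPKM or above in every library, and the next gene, a U6atac copy, lies between 80.3 and 88.9.

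Each array also held 1 U1 gene at a far lower level. LOC120101355, between called copies on chromosome 2, had 1.5, 4.09 and 2.21 FPKM, and its values lay on both sides of the background. LOC120093357 on chromosome 6 had 16.5, 5.55 and 11.7 FPKM (adjusted p 1, edgeR). They were 164 and 163 bases long, within 2 bases of every called neighbour.

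The 6 other called U1 genes lay alone, on chromosomes 3, 7, 11, 14 and 18. LOC120098443 on chromosome 18 had 54.2, 49.0 and 47.9 FPKM (19.4-fold, adjusted p 2.1e-05, edgeR). LOC120098346, also on chromosome 18, had 75.3, 28 and 48.0 FPKM, a wide spread with replicate 2 lowest. LOC120095751 (chromosome 11) had 44.7, 36.4 and 53.4 FPKM, and LOC120093942, within the potassium channel gene Kcnh3 on chromosome 7, had 42.9, 34.4 and 50.0. Rnu1-136 on chromosome 3, the only U1 gene with an assigned symbol to be called, had 50.0, 29.7 and 50.6 FPKM. LOC120096839 on chromosome 14 was the lowest of the called U1 genes at 15.1, 37.2 and 22.4 FPKM (adjusted p 0.035, edgeR). The genes with a variant U1 symbol stayed near or below the background: Rnvu1-6 had 4.95, 2.68 and 4.27 FPKM and Rnvu1-33 had 0.117, 0.117 and 1.98.

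**Figure D3:**
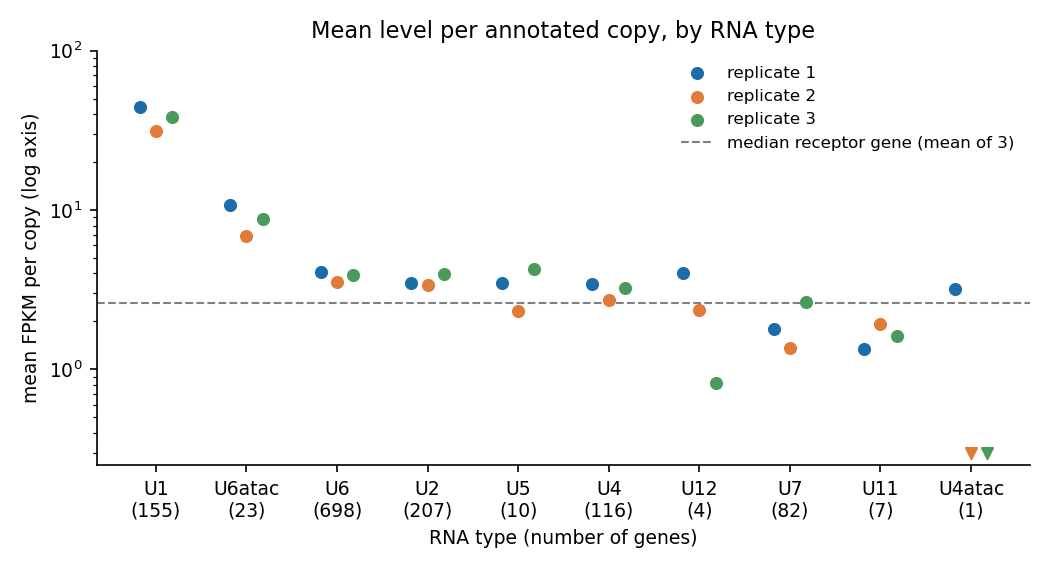
Mean FPKM per annotated copy (log axis) of each RNA type in each of 3 libraries, with the number of genes in brackets; the dashed line is the median receptor gene, and triangles mark libraries where U4atac was listed at 0. U1 lies at 31.2 to 44.6 FPKM and U6atac at 6.90 to 10.8, both above the line in every library.

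U2, which pairs with the branch point, was 1.38 ± 0.176 times the background per annotated copy, with 717, 697 and 820 FPKM summed over 207 genes. Of these 2 were called, with 8 at an unadjusted p under 0.05. The count was 7 without replicate 1, 1 without replicate 3, 5 by DESeq2 and 1 by limma. LOC120095482, on chromosome 10 from 83474282 to 83474471, had 41.3, 48.2 and 49.3 FPKM (18-fold, adjusted p 4.1e-05, edgeR). It lies within Ikzf3, a lymphocyte transcription factor gene, on the same strand, and Ikzf3 had 8.01 FPKM.

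The U2 genes also formed arrays, and these differed between libraries in another way than U1. On chromosome 10, from 86534225 to 86592973, 5 copies of 191 bases lay within 58.7 kb, and on chromosome 9, from 73856773 to 73894203, 4 lay within 37.4 kb. Only LOC120095477 of the 9 was called, with 13.1, 27.2 and 31.5 FPKM (adjusted p 0.036, edgeR), and it overlaps the DNA repair gene Rdm1, at 6.15 FPKM. Summed over the 9 copies, the U2 arrays had 85.5, 156 and 178 FPKM, so that replicate 1 was at 0.549 times replicate 2. The 12 highest U1 genes summed to 6018, 4170 and 5310 FPKM, with replicate 1 at 1.44 times replicate 2. All 12 U1 copies were lowest in replicate 2 and 10 were highest in replicate 1, while 7 of the 9 U2 copies were lowest in replicate 1. With 1 library on each side this difference has no test, and replicate 1 was also the library with the fewest counts; its part in the difference was not tested. The receptor background too was highest in replicate 1 and lowest in replicate 2, at 2.94, 2.33 and 2.62 FPKM in replicates 1 to 3. Its part in the U1 pattern was not tested. Near-identical copies can share reads, so copies of 1 type need not be separate observations.

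**Figure D4:**
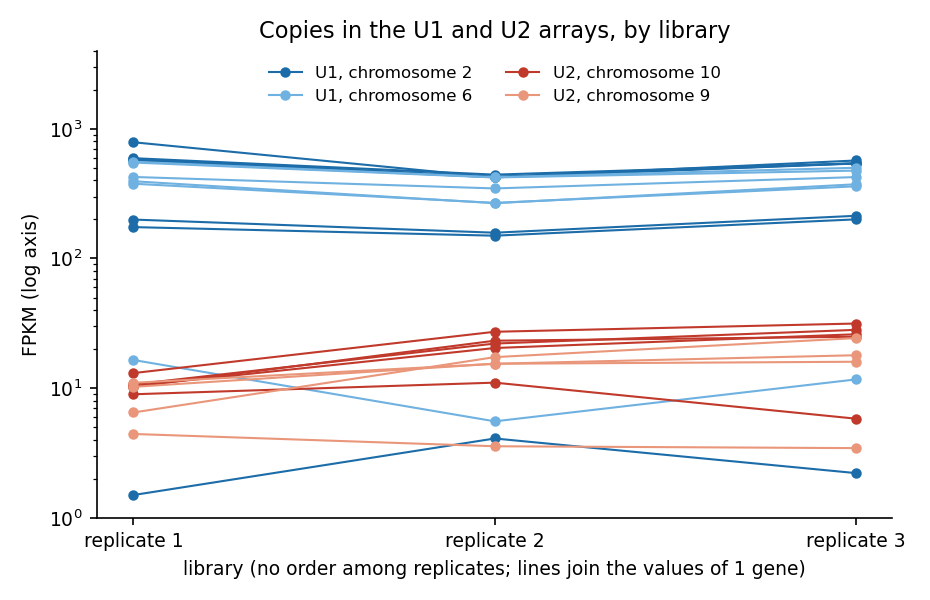
FPKM in each library (log axis) of every copy in the U1 arrays of chromosomes 2 and 6 and the U2 arrays of chromosomes 10 and 9; lines join the values of 1 gene and imply no order of the libraries. The upper 11 U1 copies dip in replicate 2, and 7 of 9 U2 copies are lowest in replicate 1.

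U4, the partner that keeps U6 inactive until the spliceosome is assembled, was 1.19 ± 0.0383 times the background per copy, and 0 of 116 genes were called by edgeR and by limma. At an unadjusted p under 0.05 there were 3, and by DESeq2 1 U4 gene was called. The highest, LOC120100117 on chromosome 1, had 35.4, 16.6 and 15.4 FPKM, highest in replicate 1 and above 4 times the background in each library (adjusted p 0.081, edgeR). Of the genes with an assigned U4 symbol, Rnu4-5 had 10.8, 13.6 and 16.4 FPKM and Rnu4-2 had 8.86, 6.0 and 18.5; both exceeded the background in every library, and neither was called.

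U5 genes, of which there were 10, came to 1.28 ± 0.330 times the background. The highest, LOC120096441, had 15.3, 5.44 and 3.43 FPKM. By edgeR, DESeq2 and limma 0 of the 10 were called, and 0 at an unadjusted p under 0.05. A chain of 3 U5 genes on chromosome 5 summed to 4.41, 9.64 and 10.4 FPKM, at most 3.69 FPKM for any gene's mean.

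U6, the catalytic RNA, is made by RNA polymerase III and had the most annotated genes. Its 698 genes summed to 2858, 2479 and 2732 FPKM, which is 1.47 ± 0.0693 times the background per copy. Of these 14 were called (2.01%; means 26 to 48.1 FPKM, 10.1-fold to 18.1-fold), all within 5 bases of the commonest length of 107 bases, as were 597 of the 698. The count of 14 depended on the setting and on the libraries: it was 9 without replicate 2 and 9 without replicate 3, 2 against the median protein-coding gene, and 0 with 300 bases added to each gene's length or at a threshold of 10 times. LOC120098447 on chromosome 18 had 64.4, 32.9 and 46.9 FPKM, lowest in replicate 2. LOC120093296 on chromosome 6 (40.9, 46.7 and 42.2) and Rnu6-75 on chromosome 1 (39, 39.8 and 39.1) varied little between libraries. No array of 3 or more U6 genes held a called gene. The longest, 9 genes on chromosome 4, summed to 15.3, 14.2 and 26.3 FPKM, and 0 of the 9 had an unadjusted p under 0.05 by edgeR. Among U6 genes with an Rnu6 symbol 1 of 90 was called, and among those with a placeholder symbol 13 of 608.

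By mean level per copy, the minor-class RNAs fell into an upper member and 3 near or below the background. U6atac, the counterpart of U6, was 3.32 ± 0.350 times the background per copy, second to U1, with 248, 159 and 201 FPKM over 23 genes, and 2 genes were called. The median U6atac gene had a log2 fold of only 0.70 over the background. Of the 2 called genes 1 was within 5 bases of the commonest length of 126 bases, as were 15 of the 23. LOC120093480, on chromosome 6 from 49605209 to 49605327, had 88.9, 88.9 and 80.3 FPKM (33.3-fold, adjusted p 1.5e-06, edgeR), the highest gene of the class that is not U1, and held 42.5% of the FPKM of its type. It was 119 bases long, and the later RefSeq annotation described below lists it as a pseudogene. A gene on the opposite strand that overlaps it had 9.11 FPKM. LOC120094525 on chromosome 8 had 40.7, 23.7 and 41.1 FPKM. The gene that carries the symbol Rnu6atac itself had 3.06, 4.92 and 4.75 FPKM and was not called.

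U11, which pairs with the start of minor introns, came to 0.633 ± 0.187 times the background over 7 genes. The highest, Rnu11-3, had 2.22, 2.12 and 6.10 FPKM. U12, which pairs with their branch point, came to 0.900 ± 0.540 times the background over 4 genes, and its highest gene Rnu12-2 had 7.83, 2.78 and 1.98 FPKM. The single U4atac gene, LOC120096423, had 3.21 FPKM in replicate 1 and was listed at 0 in the other libraries. Of these 12 genes 0 were called by edgeR, DESeq2 or limma, and 0 had an unadjusted p under 0.05. Their summed counts were at most 17, against 75 for the lowest called gene of the class. The copies of U12, U11 and U4atac with the highest summed count were fitted at 1.61, 1.45 and 0.454 times the background, under the 4 times needed. Whether a level just above 4 times could be called in such short genes at this depth was not tested.

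U7, the RNA that guides the cut at the end of histone mRNAs, had 82 genes of mostly 63 bases at 0.738 ± 0.240 times the background. By edgeR, DESeq2 and limma 0 were called, and 1 had an unadjusted p under 0.05. The highest, LOC120096765 on chromosome 14, had 17.3, 10.4 and 28.9 FPKM (adjusted p 0.77, edgeR). Only 12 U7 genes had counts in every library.

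Ratios between types were taken within each library for 8 chosen pairs, and each kept its direction in every library. By summed FPKM the U1 genes stood above the U6 genes by 1.12 ± 0.154 on the log2 scale, and by summed counts 1.63 ± 0.145. The U2 genes lay below U1 by a log2 ratio of summed counts of -2.93 ± 0.293, with -3.26 in replicate 1 and -2.69 in replicate 2. U1 exceeded U4 by 4.15 ± 0.0868, U5 by 7.87 ± 0.235 and U11 by 9.10 ± 0.408. Between each major type and its minor-class counterpart, U6 exceeded U6atac by 3.63 ± 0.203 and U2 exceeded U12 by 6.50 ± 1.17. U4 exceeded U4atac by at least 7.22 ± 0.277, with U4atac set at a floor of 3 counts per library where it had fewer. All 8 ratios had the same sign in 3 of 3 libraries, and the exact two-sided sign-flip permutation test gave 0.25 for each, the smallest p that 3 libraries allow (0.25 after adjustment over 8). These sums follow the number of annotated copies: with the highest copy of each type in place of the sum, U6 over U6atac changed sign, to -1.0, U1 over U6 was 4.21, U2 over U12 was 4.01 and U4 over U4atac was 3.12. After subtraction of the background from each sum, U2 over U1 was -4.45, U1 over U4 was 6.08, U1 over U5 was 9.78, U1 over U6 was 2.92 and U6 over U6atac was 2.73, so the size of each ratio rests on how copies are summed.

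Called genes lay on 13 chromosomes. Of the 69 small nuclear RNA genes on chromosome X 0 were called by edgeR, against 2.76% of the class and 4.05% of all genes. At an unadjusted p under 0.05 the number on chromosome X was also 0. At such rates 69 genes would hold few calls, and their median summed count was 6, so the 0 says little about chromosome X. Overlap with another gene on the same strand occurred in 220 of the 1303 genes, of which 4 were called, and the genes around these 4 had at most 8.01 FPKM. Without the 220 the class held 0.191 ± 0.0317% of the counts. A further 6 called genes overlapped a gene on the opposite strand alone, each at no more than 9.11 FPKM; the libraries are stranded per the labels, but whether counting used strand is not given in the sources used here.

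A later RefSeq annotation (assembly GRCr8) held 1214 of the 1303 symbols, with 837 listed as snRNA genes and 377 as pseudogenes. Of the 837, 34 were called (4.06%), and of the 377, 1 was called. That gene was LOC120093480, the highest U6atac copy. Among the 89 without a match, LOC120096839, the lowest called U1 gene, was called. Of the 837, 62 were U1 genes and 597 were U6 genes.

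The mRNAs of proteins that bind or make these RNAs were looked up in 12 lists of 122 symbols, of which 120 were in the table, with 122 gene entries. Of these 13 were called (10.7%, against 4.05% of all genes), and the median log2 fold over the background was 1.38 against 0.85 over all genes. In the Sm ring 3 of 8 were called: Snrpf (35.6, 86.7 and 54.7 FPKM), Snrpe (15.6, 42.4 and 46.7) and Snrpd1 (19.5, 37.4 and 36.4), each lowest in replicate 1. Among U1 proteins 3 of 6 were called: the core protein gene Snrnp70 (48.1, 82.5 and 74.4 FPKM), and the splice-site factor genes Luc7l3 (62.0, 103 and 92.5) and Luc7l2 (17.9, 25.4 and 22.3). The U1 protein genes Snrpa and Snrpc, at 8.19 and 14 FPKM, were not called.

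In the LSm2-8 ring, which binds U6, 2 of 9 entries were called, Lsm4 at 24.9 ± 10.9 and Lsm7 at 23.9 ± 2.36 FPKM. Of 12 U2 protein genes 1 was called, Sf3b2 at 17.2 ± 4.22 FPKM, and of 14 genes of the U4/U6 and U5 particles 2 were, Sart1 at 26.6 ± 9.78 and the helicase gene Ddx23 at 24.9 ± 6.91. Of 12 minor-class genes Zcrb1 was called, at 18.9 ± 2.12 FPKM. Among 8 genes of export and cap formation the nuclear transport GTPase gene Ran was called, at 32.4 ± 10.2 FPKM. By edgeR, DESeq2 and limma 0 of 53 genes were called in the other 5 lists, against 4.05% of all genes by edgeR. An unadjusted p under 0.05 by edgeR was found for 2 of the 53, against 1793 of all 29684 genes. At such rates 53 genes would hold few calls, so the 0 does not set these 5 lists apart. The lists held 7 genes of the U7 particle and histone mRNA ends (highest Zfp473, 9.10 FPKM), 8 of the promoter complex SNAPc and its partners (Snapc5, 7.18), 14 of Integrator, which cuts the nascent RNA (Ints11, 9.74), 12 of the SMN assembly complex (Gemin8, 8.69) and 12 of trimming and modification (Larp7, 12.8). The count of 13 rested on the libraries and on the test: it was 20 without replicate 1 and 8 without replicate 3. By limma on log2(FPKM + 1) it was 3 of 122, against 549 of 29684 over all genes. By DESeq2 it was 14, against 1427 over all genes.

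**Figure D5:**
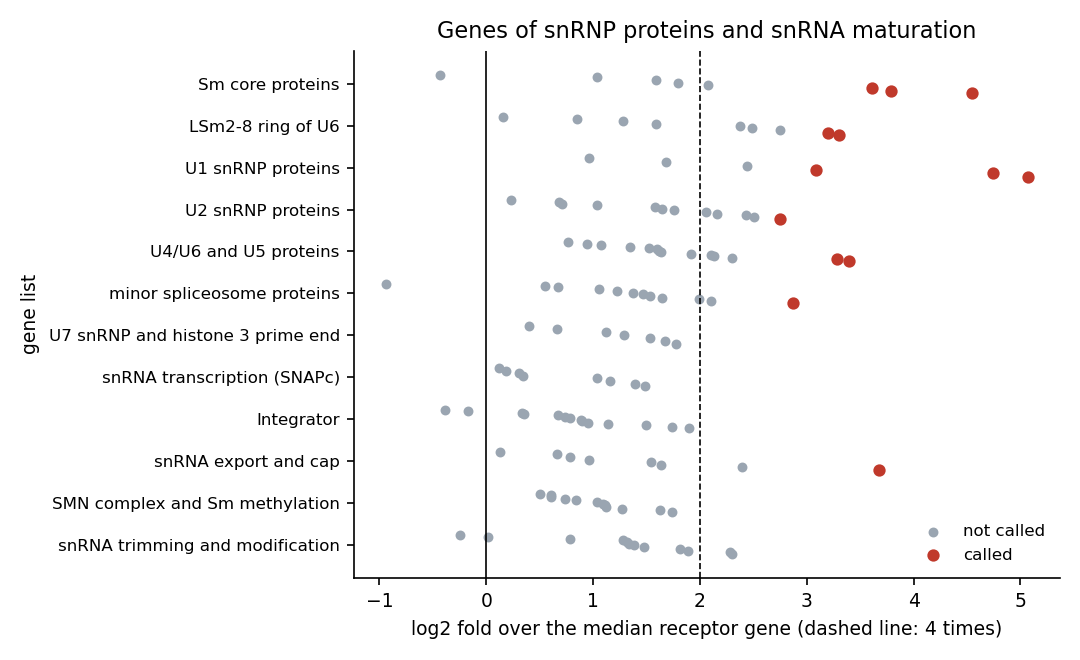
Log2 fold over the median receptor gene of each of 122 gene entries of the 12 protein lists; red points are the 13 called genes, the solid line is the background and the dashed line 4 times it. The called genes lie in 7 of the lists, led by Luc7l3 and Snrnp70 of the U1 proteins and Snrpf of the Sm ring.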

How the data were processed

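The deposited table holds, per the file headers, a count and an FPKM for each gene and library, with Ensembl identifiers, coordinates, strand, biotype and description. Per the submitters' processing notes, cutadapt 1.9 and FastQC were used, with genome build mRatBN7.2. Which aligner and counter were run, and how strand and reads with several matches were handled, is not given in the sources used here. Per the labels' protocols, RNA from a column kit went into a stranded total RNA library for low input, with removal of ribosomal cDNA and paired-end sequencing; no molecular identifiers are named, and what a column kit does to RNA of this length was not tested.

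The authors' deposited counts were treated as estimated counts, not read counts. In each library they equalled the covered bases that the authors' deposited FPKM implies, divided by a fixed step and rounded up, for 99.54% to 99.77% of small nuclear RNA genes at a step of 75. That match was about as close at every step tried; the step itself was read from whole numbers. At 75, 96.51% to 98.52% of 741 to 767 low genes had whole numbers of covered bases within 0.02, against 33.91% to 35.33% at steps of 25, 50, 100 and 125. A step of 150 doubles the covered bases, so whole numbers at 75 stay whole by construction. It gave 97.72% to 98.65%, and the data do not decide between 75 and 150. The step of 150 was an added alternative, chosen after the data were seen. The design had assumed counts of reads; the test was kept on these whole numbers, and its precision covers the spread between libraries only. The authors' FPKM divides by gene length and by a total per library.

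Levels and their mean ± SD over 3 libraries are the deposited FPKM. The quasi-likelihood F statistic of the intercept (edgeR 4.0.16, R 4.3.3), one-sided, tested each of 29684 genes against 4 times the median receptor counts per base times gene length, with Benjamini-Hochberg adjustment. DESeq2 1.42.0 and limma 3.58.1 on log2(FPKM + 1) were alternatives, as were another background, TMM scaling, 300 bases added to the length, a summed count of at least 10, thresholds of 2 and 10 times, and leaving out each library. The script was tested on simulated data with known answers, in which some genes were raised far above the threshold. Levels just above 4 times the background were not simulated. Arrays were chains of genes of 1 type with gaps of at most 100000 bases.

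Genes named in the text were the highest copy of every type, the 15 with the highest summed count, the 20 called with the highest fold, and in each protein list the called genes or else the highest; other genes named (array members, other called genes, genes with assigned symbols, uncalled Sm and U1 protein genes and markers) were chosen after their values were seen. The genes and lists were chosen with earlier results of these data known. Sequences of these genes were not used here, so the motif search of the design was not run.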

Additional observations from a re-analysis of the deposited data

How the results depend on the processing

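The share of counts in the class, 0.222%, was 2.54% as a share of summed FPKM and 0.271% without ribosomal RNA genes and the mitochondrial genome, and 0.203% to 0.242% with each library left out. The 36 called small nuclear RNA genes became 15 with 300 bases added to each length, 21 against the median protein-coding gene, 75 at a threshold of 2 times and 14 at 10 times; a larger length, a higher background or a higher threshold raises the level to be passed by construction. They were 43 by DESeq2 and 32 by limma, against 1427 and 549 of all 29684 genes. The count was 36 with TMM scaling, 36 with a summed count of at least 10, 35 at 150 bases per count, and 29 to 41 with each library left out. Among types, U1 calls ranged from 13 to 25, U6 calls from 0 to 28, U2 calls from 0 to 15 and U6atac calls from 1 to 2 over these settings. The 12 highest U1 genes were called in every one of these settings. They were picked for their high counts in these same data, so that outcome is no separate support. The 13 called protein genes became 3 by limma, 3 against protein-coding genes, 54 at 2 times, 3 at 10 times and 8 to 20 with each library left out (20 without replicate 1, 8 without replicate 3); the cause of the change by limma was not tested. U6 over U6atac reversed to -1.0 with the highest copy of each type. U1 over U11, U2 over U12 and U4 over U4atac gave no value after subtraction of the background, nor did U4 over U4atac by summed FPKM. Of the values for single named genes 412 kept their side of the threshold, 51 lost the call, 3 gained it and 0 reversed. No paired analysis was possible because there was 1 group. Genes with few counts limit what depth can show: the lowest summed count of a called gene was 75.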

Other observations

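These values take a count as 75 covered bases. At 150, which the data do not tell from 75, each number of covered bases would double. Among genes of 107 bases, the commonest length of U6, the most frequent value of covered bases was 107 in replicates 1 and 2 (10 of 224 and 11 of 227 genes with counts). In replicate 3 it was 214 (11 of 226 genes), with 10 genes at 107. A background level in a gene of this length corresponds to 188, 179 and 203 covered bases in replicates 1, 2 and 3.

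Of 2783 values of small nuclear RNA genes under 2000 covered bases, 583 (20.95%) were flagged as not whole within 0.02 at a step of 75. The implied bases can lie slightly under a whole number, by more at higher values. Rnu12-2 had 299.989 bases in replicate 2 and 701.973 in replicate 1, the latter outside the tolerance. The flag thus takes in values close to a whole number, and how many of the 583 were truly fractional was not tested. The flagged share was 30.45% in U1 genes, 18.73% in U6 genes and 3.817% in U7 genes. Since the flag depends on the number of covered bases, these shares cannot be read as a difference between RNA types.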
